A study of Mus musculus with 12 samples.

Results

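Most of the genes described here encode subunits and assembly factors of the 5 oxidative phosphorylation complexes of the mitochondrion, measured by RNA sequencing of mouse tongue. They were taken by symbol: any symbol that begins with Nduf, Uqcr or Atp5, with Sdha, Sdhb, Sdhc or Sdhd, or with Cox4, Cox5, Cox6, Cox7 or Cox8. This takes nuclear genes only and leaves out subunits encoded by mitochondrial DNA and some further chain and assembly genes. The rule found 92 of 23235 genes, of which 42 belong by symbol to complex I, 6 to complex II, 8 to complex III, 19 to complex IV and 17 to complex V. Of these, 81 encode structural subunits and 6 encode assembly factors. The other 5 carry such a symbol without being a subunit: Ndufa4l2, Cox7a2l, Atp5s, Atp5sl and Cox4nb, whose product belongs to a membrane protein complex of the endoplasmic reticulum.

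The study took RNA from whole tongue of C57BL/6 mice at 31 weeks of age, 12 samples in 4 treatment groups with 3 samples each. The labels give the groups as V.C. with no further treatment, V.C. with ethanol, 4-NQO with no further treatment, and 4-NQO with ethanol. 4-NQO is a carcinogen used to produce oral lesions in mice, and V.C. is not spelled out in the labels. The deposited tables hold 1 level per gene for each of 4 numbered groups and 1 comparison for each pair of them, and nothing in the labels or tables ties a number to a treatment, so the groups are named by number only. No value per sample was used, the read depth of each sample is unknown, and each group value stands for 3 samples. Nothing in the labels says that these came from separate animals, so any spread between them may be technical. No source used here says how the p-values take that spread in.

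Complexes I to IV form the respiratory chain of the inner mitochondrial membrane. They pass electrons from NADH and succinate to oxygen while complexes I, III and IV pump protons, and complex V, the ATP synthase, uses the proton gradient to make ATP. Tongue is built largely of striated muscle rich in these complexes, under a stratified epithelium. Complex IV has subunits with a heart and skeletal muscle isoform and a second isoform found in most tissues: Cox6a2 and Cox6a1, Cox7a1 and Cox7a2, and Cox8b and Cox8a.

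The levels of these genes were higher in groups 1 and 2 than in groups 3 and 4. Summed over the 92 genes, groups 1 to 4 held 60778, 53758, 32011 and 32141 FPKM. FPKM counts sequenced fragments relative to transcript length and library size. Groups 3 and 4 therefore held 52.7% and 52.9% of the sum of group 1. By complex, the sum in group 4 ranged from 49.7% of that in group 1 for complex IV to 54.7% for complex V. The 11 genes that encode no subunit kept more, at 63.4% in each of groups 3 and 4. Of the 92 genes, 90 reached 1 FPKM and were tested in every comparison. Cox7b2 stayed under 1 FPKM in all groups, and Cox8c was listed at 0. For 11 of the 92 the authors' tables give a locus shared with another gene, among them Ndufa13, Ndufa2, Ndufs5, Atp5b and Cox6a2, and the library kit is not stated to keep strand. Many of these genes also have processed pseudogenes, and no source used here says how reads were divided between copies.

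**Figure D1:**
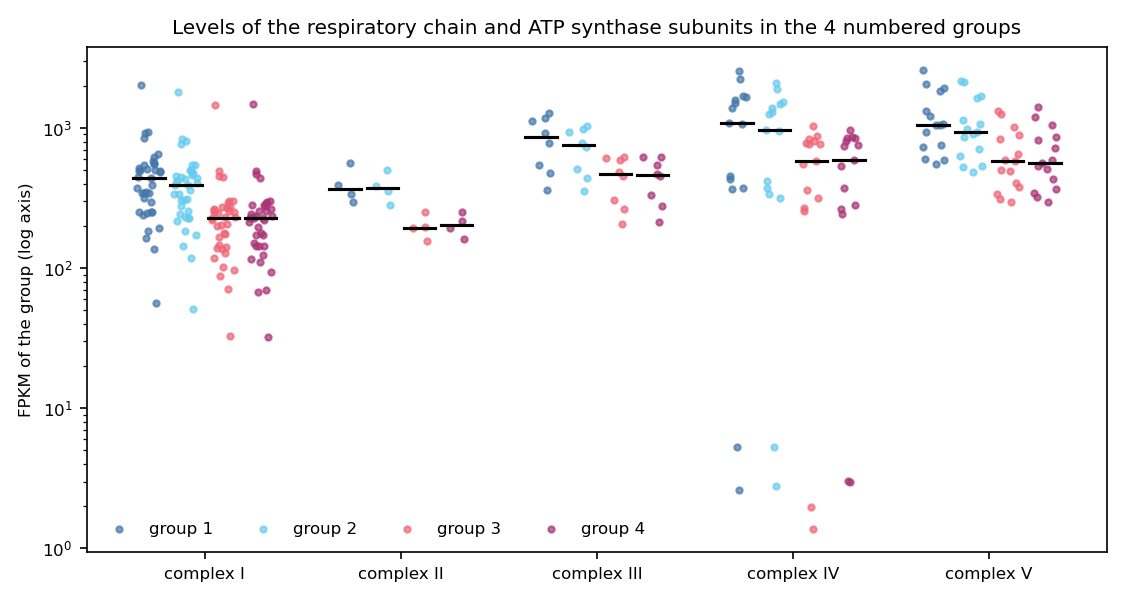
Level of each structural subunit that reached 1 FPKM (points, FPKM on a log axis) in numbered groups 1 to 4, by complex, with black bars at the median. In each complex the medians of groups 3 and 4 sit below those of groups 1 and 2, and the 2 points of each group under 10 FPKM in complex IV are Cox4i2 and Cox6b2.

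All p and q values below are those of the authors' deposited tables. A gene is called different when the authors' deposited q was under 0.05, over all genes and all 6 tables, with 1 FPKM or more in 1 or both groups. Differences are log2(FPKM + 1) of the higher-numbered group minus the lower-numbered one, a scale that understates changes of low genes, and each SE was recovered from the deposited ratio and test statistic. In group 4 against group 1, 28 of the 90 tested genes were called and every one was lower, which is 31.1%, against 3.91% called lower among the 13111 genes tested. At an unadjusted p under 0.05, 72 of the 90 were lower in group 4, against 13.9% of all genes. The median difference of the 90 was -0.87, and that of all genes tested was -0.08. Below 0 lay 87 of the 90, against 7407 of the 13111. The exceptions were Cox6b2, Cox4nb and Cox6a1, at 0.15, 0.09 and 0.04. Among all genes 655 were called higher and 512 lower, and 860 and 268 when centred on the median ratio.

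Which genes were called followed the size of the error as well as the size of the difference. The 28 called genes had differences from -1.40 to -0.94 with SE between 0.29 and 0.35. The 62 genes not called had differences from -1.27 to 0.15 with SE between 0.26 and 0.98, and 8 of them lay below -1. Across the 90 genes, Spearman's rho between the level in group 1 and the difference was -0.38, and that between the level and the SE was 0.24. Both are descriptions across genes of the same libraries, and genes are not independent replicates. A called gene is therefore not shown to differ from one that was not called, and that difference was not tested. The genes at 5 FPKM or more in both groups had a median log2 ratio of -0.15. With differences centred on it, 8 genes were called lower, against 2.04% of all genes. With 1 variance per gene shared by the 4 groups 0 were called, against 0.79% of all genes called lower.

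Complex I, the NADH dehydrogenase, had 19 of its 42 genes called lower in group 4 than in group 1, with a median of -0.95. That is 45.2%, against 3.91% of all genes tested. Of the 7 core subunits under the symbol rule, which carry the redox centres of the arm facing the matrix, 2 were called. Ndufs7, which holds the last iron-sulfur cluster before ubiquinone, stood at 585, 499, 266 and 280 FPKM in groups 1 to 4 (difference -1.06, SE 0.31, deposited q 0.0298). Ndufs8, which holds the clusters just before it in the same electron path, stood at 195, 173, 96.5 and 94.4 FPKM (-1.04, SE 0.29, q 0.0166). The other 5 core subunits had differences from -0.96 for Ndufs3 to -0.57 for Ndufv1, the NADH-binding subunit, which stood at 342, 337, 201 and 229 FPKM.

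Accessory subunits of complex I surround the core and are needed for its assembly and stability. Of 30, 17 were called lower, or 56.7% against 3.91% of all genes tested, with a median of -0.98. Ndufb2, in the membrane arm, had the lowest q of the complex: 542, 444, 246 and 234 FPKM in groups 1 to 4 (difference -1.21, SE 0.29, deposited q 0.00266). Ndufc1, also of the membrane arm, stood at 652, 547, 299 and 302 FPKM (-1.11, SE 0.29, q 0.00786). Ndufa5, which sits on the arm facing the matrix, stood at 560, 461, 257 and 258 FPKM (-1.12, SE 0.29, q 0.00901). In all 3 genes group 2 lay somewhat below group 1, and groups 3 and 4 lay far below both.

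Several accessory subunits at the NADH-oxidising end of the complex were among the called genes. Ndufs6, a zinc-binding subunit, stood at 495, 418, 250 and 233 FPKM in groups 1 to 4. Ndufs4, whose loss in mice gives a model of Leigh syndrome, stood at 137, 118, 70.5 and 69.5 FPKM. Ndufv3, of the flavoprotein fraction, stood at 317, 276, 146 and 145 FPKM. Ndufa2 stood at 508, 433, 273 and 255 FPKM and Ndufa12 at 439, 389, 232 and 226 FPKM. In all 5, groups 3 and 4 lay below groups 1 and 2, with the differences between groups 4 and 1 running from -1.13 for Ndufv3 to -0.95 for Ndufa12.

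Membrane-arm accessory subunits made up most of the rest. Ndufa13, also known as GRIM-19 for its part in interferon and retinoid induced cell death, stood at 253, 218, 118 and 115 FPKM. Its difference between groups 4 and 1 was -1.12 with SE 0.30 (deposited q 0.0123), and its locus is shared with Tssk6 in the authors' tables. Ndufa1, an X-linked subunit, stood at 516, 450, 263 and 245 FPKM. Ndufa3 stood at 941, 808, 448 and 442 FPKM, and Ndufa8 at 345, 311, 177 and 179 FPKM. Ndufa8 was also the called gene closest to the threshold, with a deposited q of 0.0473. Ndufab1, the mitochondrial acyl carrier protein, which also serves lipoic acid synthesis, stood at 253, 226, 129 and 125 FPKM.

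The remaining called genes of complex I carry Ndufb symbols, which mark subunits of the membrane arm. Ndufb7 stood at 491, 405, 233 and 234 FPKM and Ndufb10 at 624, 540, 299 and 289 FPKM. Ndufb4 stood at 555, 490, 293 and 278 FPKM and Ndufb5 at 345, 305, 167 and 172 FPKM. Their differences between groups 4 and 1 were lowest for Ndufb10, at -1.11, and for Ndufb7, at -1.07. The lowest value of the complex belonged to a gene that was not called: Ndufs5 stood at 163, 144, 88.1 and 67.0 FPKM (difference -1.27, SE 0.55, q 0.271). At the other end was Ndufa4, since reassigned to complex IV, at 2035, 1795, 1467 and 1477 FPKM (-0.46, SE 0.40, q 0.929). It was the most abundant gene with an Nduf symbol and the structural one of that symbol with the smallest difference. Ndufa4l2, a related gene that encodes no subunit of complex I, had the smallest difference of the 42, at 42.8, 38.6, 28.3 and 34.1 FPKM (-0.32, SE 0.45).

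Assembly factors build the complexes without staying in them. In group 4 against group 1 the authors' test called 0 of 6, where 3.91% of all genes were called lower. So few genes at that share do not set the assembly factors apart. At an unadjusted p under 0.05, 4 of the 6 were lower, against 13.9% of all genes. The median difference of the 6 was -0.65. Ndufaf3 had the lowest value, at 24.0, 21.6, 11.2 and 10.99 FPKM (difference -1.06, SE 0.35, deposited q 0.0801), and Ndufaf2 the highest, at 19.0, 16.6, 15.0 and 14.1 FPKM (-0.40, SE 0.39). The 6 genes had levels of at most 28.0 FPKM in every group, where the least abundant structural subunit of complex I, Ndufa11, stood at 32.1 to 56.2 FPKM.

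Complex II, succinate dehydrogenase, links the citric acid cycle to the chain and had a median of -0.76 in group 4 against group 1. Of its 6 genes 1 was called, or 16.7% against 3.91% of all genes called lower. That gene was Sdhb, the iron-sulfur subunit, at 562, 501, 253 and 253 FPKM (difference -1.15, SE 0.35, deposited q 0.035). Sdhc, a membrane anchor, stood at 390, 386, 192 and 192 FPKM (-1.02, SE 0.33, q 0.0564). The other anchor, Sdhd, stood at 295, 282, 156 and 161 FPKM (-0.87, SE 0.32). Sdha, the flavin-binding catalytic subunit, stood at 340, 357, 195 and 217 FPKM (-0.65, SE 0.45, q 0.766). Each of the 4 subunits was lower in groups 3 and 4 than in groups 1 and 2, with the difference for Sdha inside 2 of its standard errors. The assembly factors had the smallest differences of the 6 genes: Sdhaf2 stood at 17.35, 16.9, 10.3 and 10.95 FPKM (-0.62, SE 0.28) and Sdhaf1 at 25.8, 22.8, 17.5 and 17.8 FPKM (-0.51, SE 0.33), neither of them called.

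Complex III, the cytochrome bc1 complex, had a median of -0.81 in the same comparison. Of its 8 genes 3 were called, or 37.5% against 3.91% of all genes called lower. The called genes were 3 small subunits outside the catalytic core. Uqcr11 stood at 1174, 976, 587 and 548 FPKM (difference -1.10, SE 0.31, deposited q 0.0172). Uqcrq stood at 1268, 1040, 623 and 615 FPKM (-1.04, SE 0.32, q 0.0445), and Uqcr10 at 927, 779, 485 and 473 FPKM (-0.97, SE 0.30, q 0.0428). The large core proteins had the smallest differences of the complex, with Uqcrc1 at 542, 507, 308 and 333 FPKM (-0.70, SE 0.42) and Uqcrc2 at 358, 353, 205 and 214 FPKM (-0.74, SE 0.39). Uqcrfs1, the Rieske iron-sulfur protein, stood at 480, 441, 262 and 278 FPKM (-0.79, SE 0.36). None of the last 3 was called.

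Complex V had 3 of 17 genes called in group 4 against group 1, or 17.65% against 3.91% of all genes called lower. The median of the 17 was -0.82. Atp5e, the epsilon subunit at the base of the F1 head, stood at 1939, 1692, 894 and 860 FPKM (difference -1.17, SE 0.33, deposited q 0.0178). Atp5j2 and Atp5k, the membrane subunits f and e, stood at 1211, 988, 586 and 559 FPKM (-1.11, SE 0.32, q 0.0207) and at 2591, 2166, 1318 and 1201 FPKM (-1.11, SE 0.30, q 0.0127). Atp5k was the most abundant gene of the 92 in group 1. The catalytic head was measured least precisely: Atp5b, the beta subunit, stood at 2074, 2128, 1262 and 1400 FPKM (-0.57, SE 0.98), and Atp5a1, the alpha subunit, at 1065, 1069, 656 and 715 FPKM (-0.58, SE 0.70). Those SE are the largest among the 90 genes, and neither difference is larger than its SE. The 3 genes for the c ring, Atp5g1, Atp5g2 and Atp5g3, had differences of -1.04, -0.68 and -0.80, none of them called.

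**Figure D2:**
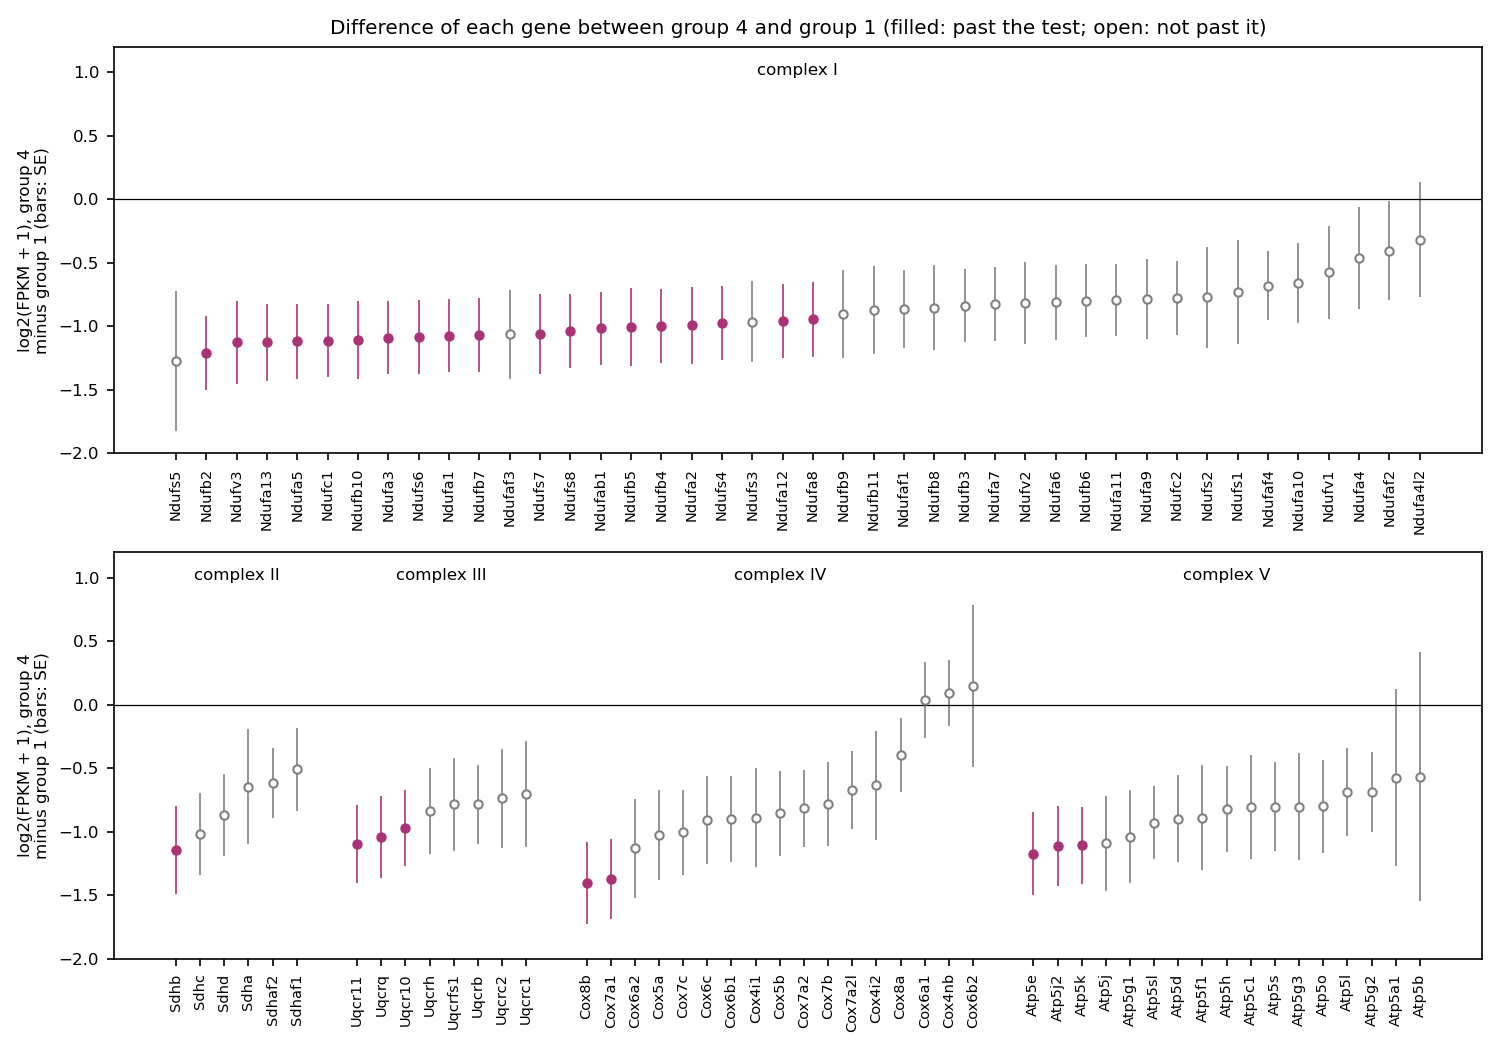
Difference in log2(FPKM + 1) between group 4 and group 1 for each of the 90 tested genes, ordered within complexes I to V, with bars of 1 SE. Filled points mark the 28 genes called by the authors' deposited q, whose differences run from -1.40 to -0.94, and 8 open points lie below -1.

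Complex IV, cytochrome c oxidase, had 2 of 17 tested genes called, both of them muscle-type isoforms. That is 11.8%, against 3.91% of all genes called lower in group 4 against group 1. Differences between the complexes in these shares were not tested. Cox8b stood at 2557, 2096, 1037 and 966 FPKM in groups 1 to 4 and had the lowest difference of the 90 genes in group 4 against group 1 (-1.40, SE 0.32, deposited q 0.0014). Cox7a1 stood at 2237, 1901, 813 and 864 FPKM (-1.37, SE 0.32, q 0.00135). The third muscle-type isoform, Cox6a2, stood at 1654, 1519, 768 and 754 FPKM and was not called (-1.13, SE 0.39, q 0.0883). Its locus is shared with Itgad and 4931431B13Rik in the authors' tables. In group 4 the 3 genes held 37.8%, 38.6% and 45.6% of their level in group 1, in that order.

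Their partners from other tissues differed from them in level and in spread over the groups. Cox6a1 stood at 364, 337, 361 and 373 FPKM, so that group 4 held 103% of the level of group 1 (difference 0.04, SE 0.30). Cox8a stood at 370, 314, 318 and 282 FPKM (-0.39, SE 0.29, deposited q 0.813). Cox7a2 stood at 430, 370, 257 and 244 FPKM (-0.82, SE 0.30, q 0.144). None was called. Together the 3 partners kept 77.2% of the sum of group 1 in group 4, and the 3 muscle-type isoforms kept 40.1%. The 2 genes with complex IV symbols that lay highest in this comparison were low in level and not called. Cox6b2, a testis isoform, stood at 2.60, 2.81, 1.37 and 2.99 FPKM (0.15, SE 0.64), and Cox4nb at 4.83, 4.92, 5.14 and 5.21 FPKM (0.09, SE 0.26). Both differences were smaller than their SE.

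**Figure D3:**
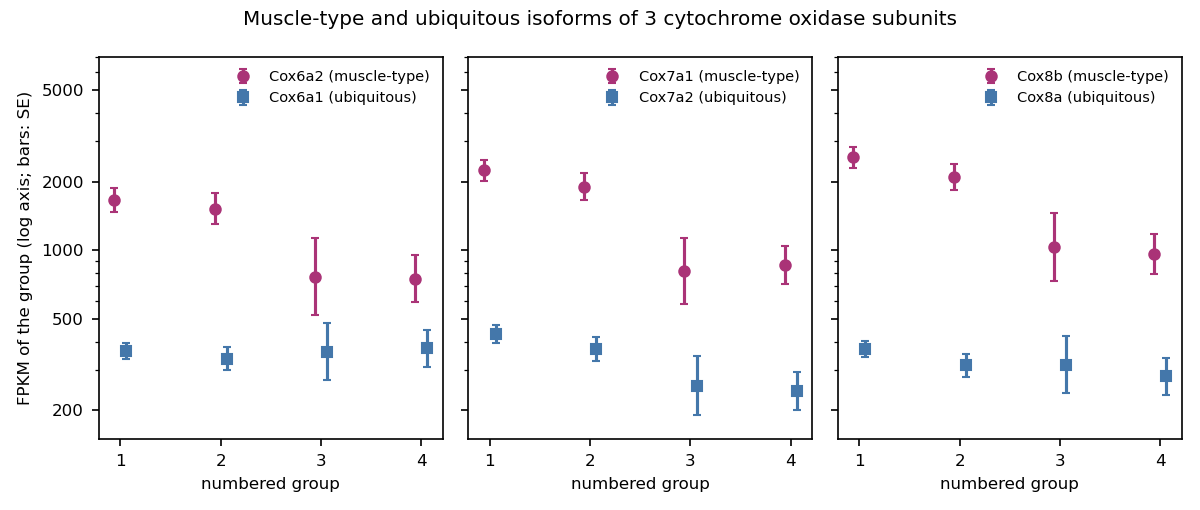
Level of the muscle-type (circles) and ubiquitous (squares) isoform of cytochrome oxidase subunits VIa, VIIa and VIII in numbered groups 1 to 4, in FPKM on a log axis, with bars of 1 SE. Cox6a2, Cox7a1 and Cox8b lie lower in groups 3 and 4 than in groups 1 and 2, Cox7a2 does so with smaller distance, and Cox6a1 stays between 337 and 373 FPKM.

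The difference between the members of a pair was computed with an SE that takes their errors as independent, without a p. In group 4 against group 1, Cox6a2 differed from Cox6a1 by -1.17 (SE 0.49) and Cox8b from Cox8a by -1.01 (SE 0.44), each more than 2 SE. Cox7a1 and Cox7a2 differed by -0.56 (SE 0.44). In group 3 against group 1 the values were -1.09 (SE 0.72), -1.08 (SE 0.67) and -0.72 (SE 0.67) for the Cox6a, Cox8 and Cox7a pairs. Both comparisons use group 1, so they are not independent of each other. In group 2 against group 1 the pairs differed by between -0.05 and -0.01, and in group 4 against group 3 by between -0.08 and 0.16, all inside 1 SE.

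As a share of the pair's summed FPKM, Cox6a2 made up 82.0% in group 1 and 66.9% in group 4. Cox8b made up 87.3% and 77.4% and Cox7a1 83.9% and 78.0% of their pairs. Group 2 lay within 1 percentage point of group 1 in each pair, and group 3 within 2 percentage points of group 4. The muscle-type isoform was thus the larger part of every pair in every group, and in bulk tissue fewer muscle cells and less of this RNA per muscle cell cannot be told apart.

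On the mm9 assembly, with GENCODE gene models, Cox7a1, Cox6a2 and Cox8b lie on chromosome 7 at 30969190 to 30971047 (plus strand), 135348950 to 135349880 (minus strand) and 148084842 to 148086345 (minus strand). Cox6a1 lies on chromosome 5 at 115795651 to 115798990, Cox7a2 on chromosome 9 at 79603048 to 79607660 and Cox8a on chromosome 19 at 7289648 to 7292106, all on the minus strand. The promoters below come from RefSeq on GRCm38.p6, whose coordinates differ from mm9. They are shown because the muscle-type and ubiquitous genes of a pair differ in their values, and Atp5k because it was the most abundant gene and was called. Each runs 5′ to 3′ on the gene's strand from 250 bases before the start site to 50 bases from it on. Capitals mark matches, on either strand, to 6 motifs: AAGGTCA (half-site of estrogen-related receptors), CCGGAAG (ETS factors such as GABPA), GCGCATGC (core of the NRF1 site), TAAAAATA (MEF2), CAGCTG (an E-box) and GGGCGG (a GC box). A capital CCGCCC or CTTCCGG is a match on the other strand, and a capital run of 10 is a pair of overlapping NRF1 matches. Cox8b, chr7:140900397-140900696 (minus strand), and Cox7a1, chr7:30183921-30184220 (plus strand), are the muscle-type genes. Cox8a, chr19:7217567-7217866, Cox7a2, chr9:79759804-79760103, and Cox6a1, chr5:115348909-115349208, are their partners, and Atp5k lies at chr5:108434350-108434649, these 4 on the minus strand.
Cox8b: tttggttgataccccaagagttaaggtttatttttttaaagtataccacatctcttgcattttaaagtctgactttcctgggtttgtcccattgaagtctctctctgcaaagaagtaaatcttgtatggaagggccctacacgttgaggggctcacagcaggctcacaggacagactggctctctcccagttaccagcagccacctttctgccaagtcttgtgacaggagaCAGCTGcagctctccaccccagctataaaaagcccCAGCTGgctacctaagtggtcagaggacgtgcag
Cox8a: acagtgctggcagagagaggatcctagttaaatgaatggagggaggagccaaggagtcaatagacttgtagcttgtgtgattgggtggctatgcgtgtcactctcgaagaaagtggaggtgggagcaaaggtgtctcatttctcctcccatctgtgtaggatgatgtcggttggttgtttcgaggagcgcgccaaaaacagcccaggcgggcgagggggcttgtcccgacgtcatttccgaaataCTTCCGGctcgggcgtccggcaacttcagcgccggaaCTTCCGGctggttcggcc
Cox7a1: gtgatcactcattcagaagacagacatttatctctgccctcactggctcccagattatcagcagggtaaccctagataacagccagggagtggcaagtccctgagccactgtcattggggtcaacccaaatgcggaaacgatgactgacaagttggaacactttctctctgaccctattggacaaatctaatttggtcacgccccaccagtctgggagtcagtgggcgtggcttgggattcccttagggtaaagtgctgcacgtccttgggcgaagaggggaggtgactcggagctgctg
Cox7a2: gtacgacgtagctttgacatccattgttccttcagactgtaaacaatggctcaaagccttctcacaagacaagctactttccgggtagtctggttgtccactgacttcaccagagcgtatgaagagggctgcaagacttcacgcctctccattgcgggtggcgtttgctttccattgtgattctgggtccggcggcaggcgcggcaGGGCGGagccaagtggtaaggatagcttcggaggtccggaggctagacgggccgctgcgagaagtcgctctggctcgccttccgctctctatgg
Cox6a1: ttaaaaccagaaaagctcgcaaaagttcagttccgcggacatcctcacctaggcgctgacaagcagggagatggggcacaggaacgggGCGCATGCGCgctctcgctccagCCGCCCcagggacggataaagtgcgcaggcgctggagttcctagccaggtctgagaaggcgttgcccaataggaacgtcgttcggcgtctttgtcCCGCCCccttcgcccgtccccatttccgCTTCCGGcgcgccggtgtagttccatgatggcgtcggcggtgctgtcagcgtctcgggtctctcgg
Atp5k: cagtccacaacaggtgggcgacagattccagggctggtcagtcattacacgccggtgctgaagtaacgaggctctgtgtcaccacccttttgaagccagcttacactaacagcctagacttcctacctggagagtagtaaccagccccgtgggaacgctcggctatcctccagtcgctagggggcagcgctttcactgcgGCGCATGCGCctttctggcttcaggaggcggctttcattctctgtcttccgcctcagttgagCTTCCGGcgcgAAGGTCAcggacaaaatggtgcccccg

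In these windows Cox8b held a pair of E-boxes, beginning at -19 and 17 from the start site, and no match to the other motifs. Cox7a1 held no match to any of the 6. Cox8a held ETS matches at -5 and 33, and Cox7a2 a GC box at -44. Cox6a1 held an ETS match at -16, overlapping NRF1 matches at -162 and -160, and GC boxes at -139 and -44. Atp5k held overlapping NRF1 matches at -50 and -48, an ETS match at 13 and a receptor half-site at 24. The 2 muscle-type windows had a GC content of 48.3% and 53.0%, below the 56.0%, 56.7% and 63.0% of the partners. A match is a run of letters and not evidence of binding, and a window without one says nothing of the factor.

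RefSeq promoters were found for 76 of the 92 genes, and Cox6a2 was among those without one. The NRF1 core stood in 14.5% of the 76, against 3.05% of the 27025 genes of the RefSeq table. ETS matches stood in 25%, against 9.93%, and receptor half-sites in 10.5%, against 5.38%. E-boxes were at 7.89% against 18.3%, GC boxes at 46.1% against 38.2%, and no window of the 76 held the MEF2 letters, against 3.09%. Among the 26 called genes with a window, ETS matches stood in 23.1% and NRF1 cores in 15.4%, and among the 49 other tested genes in 26.5% and 14.3%. No test was made on these shares.

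The lower levels in group 3 were of the same size as those in group 4 but came with wider errors. In group 3 against group 1 the median difference of the 90 genes was -0.91 against -0.04 over all 13114 genes tested, and 89 of the 90 lay below 0. No gene of the 90 was called by the authors' test. Among all genes 2.8% were called in either direction and 0.28% lower. At an unadjusted p under 0.05, 37 of the 90 were lower, against 5.19% of all genes. Medians ran from -0.92 in complex I to -0.86 in complex II. The median SE of a gene's log2 level was 0.14, 0.19, 0.47 and 0.29 in groups 1 to 4. Cox7a1 came closest to the threshold, with a difference of -1.46 (SE 0.50, deposited q 0.0864), followed in size by Cox8b at -1.30 (SE 0.51, q 0.189).

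Against group 2 the picture was alike, with smaller differences. Group 4 had 2 genes called lower than in group 2, again Cox7a1 (-1.14, SE 0.34, deposited q 0.0312) and Cox8b (-1.12, SE 0.35, q 0.043), and neither was called when centred on the median ratio of -0.13. That is 2.22% of the 90, close to the 2.25% called lower among all 13124 genes, so the count by itself does not set these genes apart. At an unadjusted p under 0.05, 51 of the 90 were lower, against 11% of all genes, and the median was -0.72 against -0.09. Group 3 against group 2 gave no called gene among the 90, with a median of -0.75 against -0.04. Among all genes 1.84% were called in either direction and 0.23% lower. There, an unadjusted p under 0.05 was reached by 2 genes, Cox7a1 at 0.0168 and Sdhc at 0.0473, both lower in group 3, against 4.95% of all genes. These comparisons share groups with one another and with those above, so they are not separate evidence.

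Within the pairs of groups, differences were small. Group 2 against group 1 had no called gene among the 90 by the authors' test, and the lowest unadjusted p was 0.158. Among all genes 0.899% were called in either direction and 0.30% lower. Of the 90, 83 lay below 0, with a median of -0.17 against 0.02 over all genes and a range from -0.29 for Atp5j2 to 0.08 for Cox6b2. The median SE of these differences was 0.23. Group 4 against group 3 also had no called gene, with a lowest unadjusted p of 0.388, against 0.294% called among all genes. The median there was 0.01, 42 of the 90 lay below 0, and the range ran from -0.39 for Ndufs5 to 0.75 for Cox6b2, where the difference had an SE of 0.83.

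**Figure D4:**
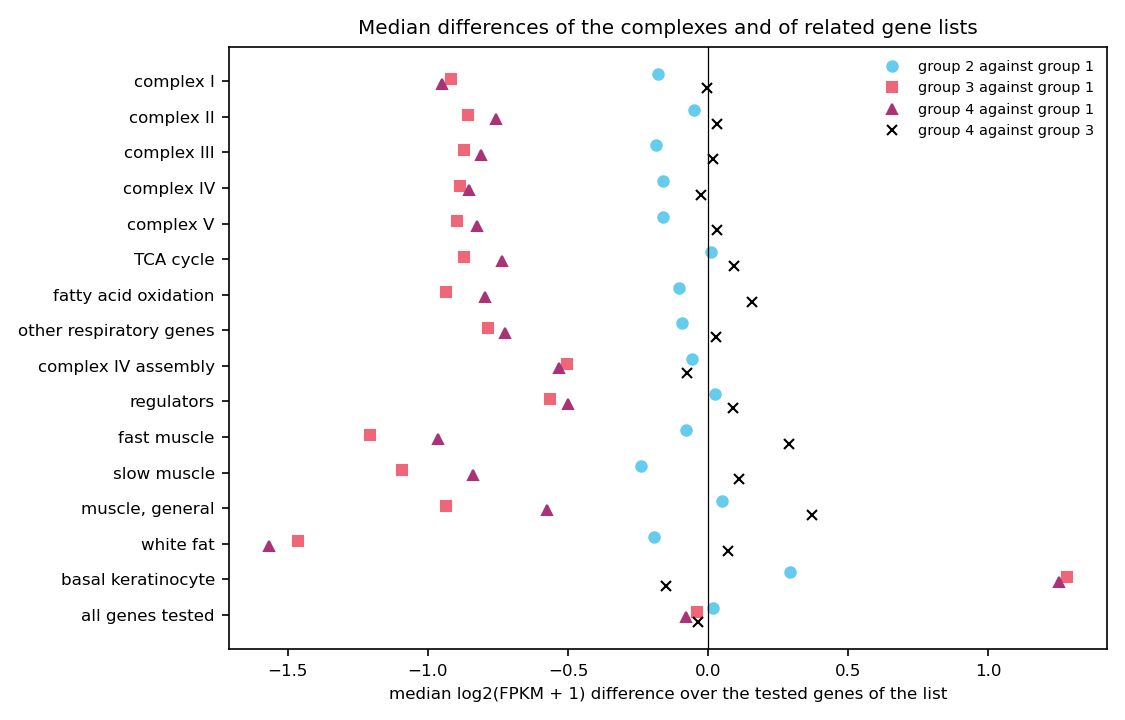
Median difference in log2(FPKM + 1) of the tested genes of each complex and of related gene lists in 4 comparisons, with all genes tested in the bottom line. The complexes lie between -0.95 and -0.76 in groups 3 and 4 against group 1 and near 0 in group 4 against group 3, the muscle lists lie on the same side, and the basal keratinocyte list lies on the other.

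By their medians, other mitochondrial pathways lay on the same side in group 4 against group 1. Of all genes tested there, 3.91% were called lower, and 13.9% were lower at an unadjusted p under 0.05. The 10 further genes of the chain, among them cytochrome c and the adenine nucleotide carriers, had a median of -0.73 with 0 called and 4 at an unadjusted p under 0.05. Of the 10, 9 lay below 0, and the carrier gene Slc25a5 lay at 0.38. Cycs, cytochrome c itself, stood at 238, 223, 119 and 115 FPKM (difference -1.05, SE 0.37). The 13 genes of the citric acid cycle had a median of -0.74 with 0 called and 8 at an unadjusted p under 0.05. Of 17 fatty acid oxidation genes, which feed the chain with electrons, 16 lay below 0, with a median of -0.80, and Cpt1a lay at 0.40. Called lower were 3 of the 17. They were Eci1, an enoyl-CoA isomerase, at 161 FPKM in group 1 and 64.6 in group 4 (-1.30, SE 0.29), Cpt2, the inner carnitine palmitoyltransferase (-0.95, SE 0.28), and Acads, the short-chain dehydrogenase (-0.93, SE 0.28). Of 10 complex IV assembly genes found, 1 was called: Cox17, the copper chaperone, at 225, 202, 111 and 110 FPKM (-1.03, SE 0.30).

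Regulators of mitochondrial gene expression showed no called gene among 14 in group 4 against group 1, with a median of -0.50. An unadjusted p under 0.05 was reached by 4 of them, of which 3 were lower and the other was higher. Of all genes, 13.9% were lower at that p. Ppargc1a, the coactivator PGC-1alpha, stood at 11.7, 11.2, 5.55 and 7.59 FPKM (group 4 against group 1 -0.56, SE 0.29). Esrra, the estrogen-related receptor alpha, stood at 68.9, 65.7, 39.4 and 41.4 FPKM (-0.72, SE 0.34). Tfb1m, a mitochondrial ribosomal RNA methyltransferase, had the lowest value, -0.87 (SE 0.46). Ppard, a nuclear receptor for fatty acids, had the highest, at 16.6, 16.9, 28.1 and 27.8 FPKM (0.71, SE 0.28).

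Markers of cell types in the tongue also differed in level between the groups. Not all of these lists set groups 1 and 2 apart from groups 3 and 4. In group 4 against group 1, 3.91% of all genes tested were called lower. Of 14 tested fast muscle genes, all lay below 0 in group 4 against group 1, with a median of -0.97, and 3 were called lower: Pvalb, Mybpc2 and Casq1, at -2.16 (SE 0.41), -1.99 (SE 0.38) and -1.14 (SE 0.32). Their summed level, without Acta1, which exceeded the authors' read limit in some tables, was 39180, 36016, 17279 and 20258 FPKM in groups 1 to 4. Of 8 tested slow muscle genes 2 were called lower, Tnnt1 and Casq2, with a median of -0.84, and the slow muscle markers Myh7 and Tnnc1 were under 1 FPKM in all groups. The 10 general muscle genes had a median of -0.57, 0 called and none at an unadjusted p under 0.05, with sums of 5341, 5191, 2254 and 2854 FPKM. In group 3 against group 1 the fast, slow and general muscle medians were -1.21, -1.09 and -0.94. In group 4 against group 3 the general muscle median was 0.37, where that of the oxidative phosphorylation genes was 0.01.

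Basal keratinocyte genes lay on the other side, with 6 of 10 called higher in group 4 than in group 1 and a median of 1.25. Among all 13111 genes tested in that comparison, 655 were called higher and 512, or 3.91%, lower. Dsg3, a desmosomal cadherin, had the largest difference, at 5.56, 7.96, 54.6 and 37.0 FPKM (2.54, SE 0.32). Cdh3, or P-cadherin, had the next largest difference among the called genes, at 1.99 FPKM in group 1 and 8.68 in group 4 (1.70, SE 0.29), and Krt14, a basal keratin, went from 485 to 1887 FPKM (1.96) without being called. The 9 genes under the read limit in all tables summed to 682, 798, 1736 and 1582 FPKM. White fat genes had 4 of 9 called lower (Adipoq, Cidec, Car3 and Cfd), with a median of -1.57, and Lep was under 1 FPKM in all groups. In the salivary gland list 6 of 10 were called lower and 1, the lactoperoxidase gene Lpo, higher. Its largest differences were those of Dcpp1, Dcpp2 and Dcpp3, at -5.93, -5.91 and -5.83, near-identical copies between which reads may be split. The 10 salivary genes under the read limit in all tables summed to 4257, 2473, 3468 and 440 FPKM, so groups 3 and 4 lay apart. In group 2 against group 1, 5 of 8 salivary genes were called lower and 0 higher, against 0.30% lower of all genes. In the neutrophil list 5 of 9 were called higher. In that list Camp, Elane, Mpo and Ngp were also called higher in group 4 than in group 3, and 0 lower. Among all 12918 genes tested there, 22 were called higher. S100a8 and S100a9, which keratinocytes also make, went from 6.67 and 7.88 FPKM in group 1 to 3184 and 2974 in group 4. Camp, Ngp and Mpo, granule proteins, stood at 47.6, 37.2 and 4.15 FPKM in group 4, and each was under 1 FPKM in group 1. Of the brown fat genes, 1 of 3 was called higher (Dio2), and Ucp1, which defines brown fat, was under 1 FPKM in every group. What part the makeup of the tissue had in the levels of the oxidative phosphorylation genes was not tested.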

How the data were processed

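RNA was poly-A selected from mouse tongue and sequenced on an Illumina HiSeq2000, per the labels' protocols and the series design text. The authors set the reads against mm9 and made FPKM levels with Cufflinks, per the design text. GSNAP 2011.11.17 and edgeR are named in the submitters' processing notes with no role given. The deposited tables hold, per the file headers, 1 FPKM per gene and numbered group, the log2 ratio of 2 groups, the authors' test statistic (a score whose sign is opposite to that of the ratio), and the authors' p-value and q-value. No source used here says how the 3 samples of a group were combined. In 100% of tests the deposited p-value lay within 0.001 of the 2-sided normal p of the statistic. Adjusting the 92458 p-values of the 6 tables together by Benjamini-Hochberg gave the deposited q-value to within 3.40e-06. With no values per sample, no model was fitted over samples, and read depth, and with it counting error, is unknown.

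Differences were computed as log2(FPKM + 1), with a pseudocount of 1. The 6 squared errors of a gene, from the deposited log2 ratio and score, were split into 1 variance per numbered group in 14600 genes (relative misfit at most 6.19e-06) and carried to the log2(FPKM + 1) scale. This step was tested on simulated data. The symbol rule was read so that the letters a to d apply to Sdh only. Levels in the 4 groups were given for the isoform pairs, for the genes past the test, and for the 2 largest and 2 smallest differences per complex. The difference, SE and q were given for only some of these genes. From the other lists the genes past the test were named where there were 5 or fewer, otherwise the 3 with the largest differences, and Cycs, Ppargc1a, Esrra, Tfb1m, Ppard and Lpo were added after their values were seen. The members and all lists were chosen with earlier results of these data known. The 13 lists were of the citric acid cycle, fatty acid oxidation, other respiratory chain genes, complex IV assembly, regulators, fast, slow and general muscle, basal keratinocytes, white and brown fat, salivary gland and neutrophils. Python 3.11.15, pandas 2.3.3, numpy 2.4.6, scipy 1.17.1 and matplotlib 3.10.9 were used. Promoters and gene positions came from RefSeq (GRCm38.p6) and GENCODE (mm9).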

Additional observations from a re-analysis of the deposited data

How the results depend on the processing

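The count of oxidative phosphorylation genes called lower in group 4 than in group 1, 28 with the authors' q under 0.05, was 5 with q under 0.01 (Cox7a1, Cox8b, Ndufa5, Ndufb2 and Ndufc1), 43 with the p-values adjusted within that comparison alone, 8 when differences were centred on the median and retested, and 0 when the 4 groups were given 1 common variance per gene. In the same order, 1.62%, 6.42%, 2.04% and 0.79% of all genes were called lower, against 3.91% by the authors' q under 0.05. The 2 genes called in group 4 against group 2 became 0 with q under 0.01, 0 when centred and 0 with the common variance. There, 0.77%, 1.29% and 0.59% of all genes were called lower. With the common variance 1 gene, Cox7a1, was called in group 3 against group 1, where the authors' q called 0. Of all genes, 0.49% were called lower there with the common variance. The common variance takes the larger errors of group 3 into the other groups by construction. The other 40 recomputed counts stayed within 1.5 times the reported ones or, where 0 was reported, stayed at 0. Among them were no FPKM filter, at least 5 FPKM, structural subunits only and, an alternative chosen after seeing the data, leaving out genes that share a locus. Every called gene is a structural subunit well above 5 FPKM. The 5 FPKM and structural settings therefore could not change the counts, and dropping the filter could only have added Cox7b2 or Cox8c. All 36 recomputed medians moved by less than the median SE of a single gene, which is not an error of the median. The 36 recomputed isoform differences also moved by less than 1 SE. They varied only the pseudocount, which hardly touches genes at these levels, so they could not have moved much. When centred, the medians of groups 3 and 4 against group 1 were -0.82 and -0.72. Over the 32 genes followed one by one in group 4 against group 1 (the called genes and the isoform pairs) and the 6 followed against group 2, 77 recomputed calls lost the threshold, 1 gained it (Cox6a2, adjusted within the comparison) and 0 changed sign. Of the settings used there, only centring alters a difference, so only centring could have changed a sign. Over all genes in group 4 against group 2, 59.5% of calls were higher, and 76.4% when centred. No paired analysis was possible because the files used here give 1 value per group, and for the same reason leaving out samples in turn was not run. No outlier among samples could be looked for, and sequencing depth limits single genes to an unknown extent.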

Other observations

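Genes with symbols of the mitochondrial ribosome, which translates the subunits encoded by mitochondrial DNA, also had lower sums in groups 3 and 4. The list was chosen after values were seen. It was taken by Mrpl and Mrps symbols alone, and whether each product, Mrps36 included, is part of the ribosome was not checked. All 76 genes lay below 0 in group 4 against group 1, with a median of -0.61, where all genes tested had -0.08. Called lower were 5 of them, or 6.58% against 3.91% of all genes: Mrps36, Mrpl34, Mrpl18, Mrpl42 and Mrpl51, at -1.20, -1.15, -1.01, -0.95 and -0.92, each with an SE of 0.28 to 0.32. In group 3 against group 1 the median was -0.62, 0 were called by the authors' test and 5 were lower at an unadjusted p under 0.05, where 5.19% of all genes were, a share near that of this list. The list summed to 4791, 4265, 3033 and 2944 FPKM in groups 1 to 4, so that group 4 held 61.4% of group 1.

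A further 2 pairs of muscle-type and general genes, also chosen after values were seen, were compared. Slc25a4, the adenine nucleotide carrier of muscle, stood at 4339, 3840, 1846 and 2064 FPKM, and Slc25a5, a carrier of other tissues, at 180, 182, 256 and 235 FPKM. The share of Slc25a4 in the pair was 96.0% in group 1 and 89.8% in group 4, and the difference between the pair in group 4 against group 1 was -1.46 with an SE of 0.85. Cpt1b, the muscle carnitine palmitoyltransferase, and Cpt1a, the liver-type one, differed by -1.30 with an SE of 0.44 in the same comparison. Cpt1b went from 112 FPKM in group 1 to 59.6 in group 4, and Cpt1a from 9.22 to 12.5 FPKM. None of the 4 genes was called in this comparison.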
